A study of Mus musculus with 8 samples.

Results

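The 9 genes described here carry, make, clear or sense retinoic acid: Crabp1, Crabp2, Rbp4, Stra6, Aldh1a1, Aldh1a2, Aldh1a3, Cyp26b1 and Rarb. They were chosen from measured values of these same libraries, so their levels and differences are given as a description, with no test. They are 9 of 55358 genes in the files and all 9 are among the 13693 genes that reached 1 FPKM (fragments per kilobase of transcript, scaled to the mapped total) in at least 2 of the 8 libraries. Only 3 of them, Crabp2, Rbp4 and Rarb, reached it in at least 2 libraries of both genotypes, so the other 6 passed through the genotype or treatment in which they were high.

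RNA was sequenced from mouse embryonic fibroblasts (MEFs), connective-tissue cells grown from embryos, that were wild type (WT) or Arid5a-/- (knockout, KO). Both genotypes were kept for 24 h without interleukin 6 (IL-6), or with it at 100 ng/ml, a cytokine that signals through the STAT factors. Each of the 4 groups, untreated WT, WT with IL-6, untreated KO and KO with IL-6, had 2 libraries (n = 2). The series looked for long non-coding RNAs that act with IL-6 and Arid5a in breast cancer. The part of Arid5a that was deleted, the embryonic stage, and how many embryos or cultures each genotype came from are not given in the sources used here. P-values below thus reflect the spread of these libraries alone, and that spread may be technical.

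Retinoic acid is a vitamin A derivative that acts as a ligand of nuclear receptors and patterns the limbs, hindbrain and body cavities of the embryo. Retinol travels in blood on RBP4 and enters some cells through STRA6. Dehydrogenases oxidise it to retinal, and the ALDH1A enzymes oxidise retinal to retinoic acid. CRABP1 and CRABP2 bind the product inside the cell, CYP26 enzymes hydroxylate it for removal, and the receptors RARα, RARβ and RARγ, paired with RXRs, switch target genes in response. Rarb is itself a textbook target of its ligand.

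Depth, read from the steps between low values, was 37.2 to 46.9 M fragments per library (M, 1e6). Arid5a, the targeted gene, was at 18.73 and 15.89 FPKM in untreated and 30.86 and 30.99 in IL-6-treated WT libraries, and at 5.51 and 6.853 in untreated and 8.474 and 8.146 in IL-6-treated KO libraries. It was lower in all 4 KO libraries than in any WT library but was not absent, and reads outside a deleted part would not check the deletion. The genotypes also differed far beyond this pathway. Of all genes tested, 36.4% were higher and 34.5% lower in untreated KO than in untreated WT (limma, adjusted p below 0.05), and 36.9% and 34.8% with IL-6. The summed level of 11 mesothelial markers was 39.31 to 53.52 FPKM in the WT libraries and 2012 to 2067 in the KO libraries. All 11 reached 1 FPKM in every KO library, 2 did in every WT library, and 5 lay below 0.1 FPKM in all WT libraries. Wt1 and Lrrn4 were listed at 0 in each of them. The 10 limb mesenchyme markers summed to 290.5 to 316.9 FPKM in WT and 34.82 to 37.53 in KO, where 5 of them, among them Tbx4 and Tbx5, lay below 0.1 FPKM in all libraries. Fibroblast markers, which define the labelled cell type, summed to 7842 to 9136 FPKM in WT and 6287 to 6607 in KO, with 11 and 9 of 11 at 1 FPKM in every library. The sum hides moves in both directions, as 4 were higher, 6 lower and 1 did not pass in untreated KO. Between untreated WT and KO the mean of S100a4 fell from 5025 to 1054 FPKM and that of Pdgfrb from 49.5 to 7.188. Fn1 rose from 231.8 to 1124. Epithelial markers summed to 0.618 to 1.26 FPKM in WT and 100.8 to 109.8 in KO, endothelial markers to 0.0764 to 0.181 and 10.82 to 12.05, and neural and neural crest markers to 8.51 to 10.6 and 18.1 to 22.7. Krt14 (61.37 to 65.97 FPKM), Krt7 (32.1 to 37.01) and Cdh1 (5.782 to 6.15) made up nearly all of the epithelial sum of KO libraries. Epcam stayed between 0.4213 and 0.6616 FPKM across both genotypes. Cldn4 was at 0.04517 FPKM or less, and Krt5 was listed at 0 throughout. Most of the neural and neural crest sum was Tubb3, whose WT libraries lay at 7.846 to 10.05 FPKM and KO libraries at 17.41 to 22.12. Of the 5 endothelial markers, Tek (8.618 to 9.553 FPKM) and Kdr (2.132 to 2.462) made up the endothelial KO sum, and Pecam1, Cdh5 and Emcn were at 0.1051 FPKM or less in all 8 libraries. Sums of leukocyte (2.27 to 3.19 and 1.67 to 2.22) and liver cell markers (2.06 to 2.95 and 2.41 to 2.83) were low in WT and KO. The 6 adipocyte markers summed to 6.65 to 32.8 FPKM in WT, held by Fabp4, and to 5.98 to 7.84 in KO, held by Pparg. Fabp4 was at 6.437 and 7.45 FPKM in untreated and 28.94 and 32.67 in IL-6-treated WT libraries and at 0.187 or less in KO, while Pparg was at 0.2283 or less in WT and 5.636 to 7.366 in KO. Every genotype difference below moved with these marker lists, and their part in it was not tested. In bulk RNA, fewer cells of a type and less RNA per cell cannot be told apart.

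Promoter windows of 300 bases, from 250 before to 50 after a RefSeq start on GRCm38.p6, were found for 7 of the 9 genes, in 12 windows. The windows of 4 genes are shown. Each covers the start from which most of that gene's signal came in the genotype where it was high. Windows of Aldh1a2 and Stra6 do so too and are not printed. The first is Rarb, at chr14:16575427-16575726 on the minus strand. Its capitals mark a direct repeat of the receptor hexamer, the words AGGTCA or GGGTCA or AGTTCA or GGTTCA, with a 5-base spacer. This spacing (DR5) is the textbook arrangement bound by a receptor pair of RAR and RXR.

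Rarb: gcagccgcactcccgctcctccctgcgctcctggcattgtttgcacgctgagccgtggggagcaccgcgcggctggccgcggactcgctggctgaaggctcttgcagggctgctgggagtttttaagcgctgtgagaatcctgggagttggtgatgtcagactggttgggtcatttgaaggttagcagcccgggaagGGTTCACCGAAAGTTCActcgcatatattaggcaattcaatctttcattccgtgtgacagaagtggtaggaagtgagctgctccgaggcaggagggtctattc

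The repeat, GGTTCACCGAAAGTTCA, ran from base -53 to base -37 counted from the RefSeq start, on the strand of the gene. The annotated start of the coding transcript Rarb-201, at 16575543, lies upstream of the repeat, which thus falls within the span of that transcript. Starts of Rarb-202 (16575472) and Rarb-205 (16575440) lie downstream of the repeat. Among 32851 RefSeq windows of the same length, searched on both strands, 32 (0.0974%) held such a repeat, and no other window of the 9 genes did. A match to TTCNNNGAA, the letter pattern of STAT factors, lay inside the repeat at -51 to -43, and 8.3% of all windows held that pattern. A further hexamer stood upstream at -83 to -78. These are matches of letters, and binding was not measured.

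Next are Crabp1, at chr9:54764498-54764797 on the plus strand, and Aldh1a1 at its downstream start, chr19:20601718-20602017 on the plus strand. They are set side by side because these genes were abundant in opposite genotypes. Capitals mark GC boxes (GGGCGG, in 35.7% of all windows on either strand) and CCAAT (in 37.4%), and overlap no other motif searched.

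Crabp1: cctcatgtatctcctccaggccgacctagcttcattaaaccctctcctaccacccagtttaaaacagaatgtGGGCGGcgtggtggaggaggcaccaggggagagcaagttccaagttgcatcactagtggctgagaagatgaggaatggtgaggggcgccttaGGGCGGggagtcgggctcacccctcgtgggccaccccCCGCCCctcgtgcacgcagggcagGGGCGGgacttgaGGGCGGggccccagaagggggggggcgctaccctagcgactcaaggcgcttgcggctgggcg

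Aldh1a1: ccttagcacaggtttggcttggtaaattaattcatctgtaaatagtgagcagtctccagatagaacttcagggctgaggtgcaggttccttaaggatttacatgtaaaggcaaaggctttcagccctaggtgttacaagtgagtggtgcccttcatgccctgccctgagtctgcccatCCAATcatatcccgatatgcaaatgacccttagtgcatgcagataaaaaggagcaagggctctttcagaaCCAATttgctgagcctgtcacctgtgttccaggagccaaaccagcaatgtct

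The Crabp1 window held 5 GC boxes, no CCAAT and 65.0% G and C. The Aldh1a1 window held 2 CCAAT words, 1 of them across the start itself, no GC box and 47.0% G and C. A receptor hexamer on the opposite strand lay at -49 to -44 of the Aldh1a1 window, and 43.7% of all windows held at least 1 hexamer. Last is the Rbp4 window at chr19:38124762-38125061 on the minus strand, with a TATAAA word (in 13.6% of all windows) and GC boxes in capitals. It is shown because Rbp4 had the largest log2 difference with IL-6 in KO cells among the 9 genes.

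Rbp4: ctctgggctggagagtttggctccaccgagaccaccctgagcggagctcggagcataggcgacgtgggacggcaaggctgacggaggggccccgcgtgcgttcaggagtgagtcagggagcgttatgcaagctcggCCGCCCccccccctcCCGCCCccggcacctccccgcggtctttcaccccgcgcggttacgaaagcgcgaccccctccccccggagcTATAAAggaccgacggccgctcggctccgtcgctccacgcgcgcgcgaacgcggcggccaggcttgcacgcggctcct

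The TATAAA word lay 28 to 23 bases before the start and 2 GC boxes lay upstream, in a window of 72.0% G and C.

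The intracellular carriers were among the abundant transcripts of WT cells and nearly missing from KO cells. Crabp1 (chr9:54764748-54773110, plus strand) encodes a protein that holds retinoic acid in the cytoplasm. It was at 631.7 and 615.1 FPKM in untreated and 482.5 and 507.6 in IL-6-treated WT libraries, and at 0.2152 and 0.07786 in untreated and 0.2788 and 0.1026 in IL-6-treated KO libraries. All WT libraries were high and all KO libraries near 0. The KO values correspond to 5, 2, 7 and 3 fragments, so no fold is given. Differences are given on the log2(FPKM + 1) scale, which understates the change of low genes. For Crabp1, KO minus WT was -9.09 ± 0.08 (SE) without IL-6 and -8.71 ± 0.08 with it. With IL-6 the WT level was 79.4% of that without, at -0.33 ± 0.08, and the libraries of the 2 treatments did not overlap.

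Crabp2 (chr3:87948666-87953376, plus strand) encodes the carrier that is known to hand retinoic acid to its receptors in the nucleus. It was at 305.4 and 308.0 FPKM in untreated and 370.1 and 379.4 in IL-6-treated WT libraries, and at 3.389 and 2.775 in untreated and 3.138 and 3.287 in IL-6-treated KO libraries. The KO mean was 1.005% of the WT mean without IL-6 and 0.857% with it, differences of -6.24 ± 0.07 and -6.48 ± 0.07. In WT its mean with IL-6 was 1.22 times that without, at 0.29 ± 0.07, in the opposite direction to Crabp1. The sum of the 2 carriers in WT was 930.1 ± 9.9 FPKM (SD, n = 2) without IL-6 and 869.8 ± 24.3 with it, while the share of Crabp1 in it was 67.0% ± 0.55 and 56.9% ± 0.45. The shares in libraries of the 2 treatments did not overlap. In KO libraries the 2 treatments overlapped for both genes.

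Retinol transport showed the opposite genotype order for Rbp4. Rbp4 (chr19:38116629-38125281, minus strand), the retinol carrier that cells secrete, was at 0.4554 and 0.6064 FPKM in untreated and 1.568 and 1.25 in IL-6-treated WT libraries, and at 7.512 and 6.952 in untreated and 10.17 and 9.788 in IL-6-treated KO libraries. Its 4 groups did not overlap, and their order from the lowest was untreated WT, WT with IL-6, untreated KO and KO with IL-6. The KO mean was 13.6 times the WT mean without IL-6 (2.43 ± 0.09) and 7.08 times with it (2.19 ± 0.09). With IL-6 its mean was 2.65 times that without in WT (0.65 ± 0.09) and 1.38 times in KO (0.42 ± 0.09). Among the 9 genes, Rbp4, Rarb and Aldh1a1 had no overlap between the treatments in either genotype by gene sum. For Aldh1a1 in WT this rests on 11 and 10 fragments without IL-6 and 1 and 0 with it. For Rarb in KO the nearest libraries of the 2 treatments lay at 1.502 and 1.423 FPKM. The share of all genes with no such overlap was not counted, so nothing is read from this.

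Stra6 (chr9:58063788-58153996, plus strand), the membrane receptor through which retinol is taken up from RBP4, was near 1 FPKM throughout. It was at 1.442 and 1.611 FPKM in untreated and 0.6797 and 0.5786 in IL-6-treated WT libraries, and at 0.6544 and 0.9732 in untreated and 0.6951 and 0.7542 in IL-6-treated KO libraries. Untreated WT was highest. WT with IL-6 had 41.2% of its mean (-0.63 ± 0.11) and overlapped untreated KO. The KO minus WT difference was -0.48 ± 0.11 without IL-6 and 0.08 ± 0.11 with it.

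**Figure D1:**
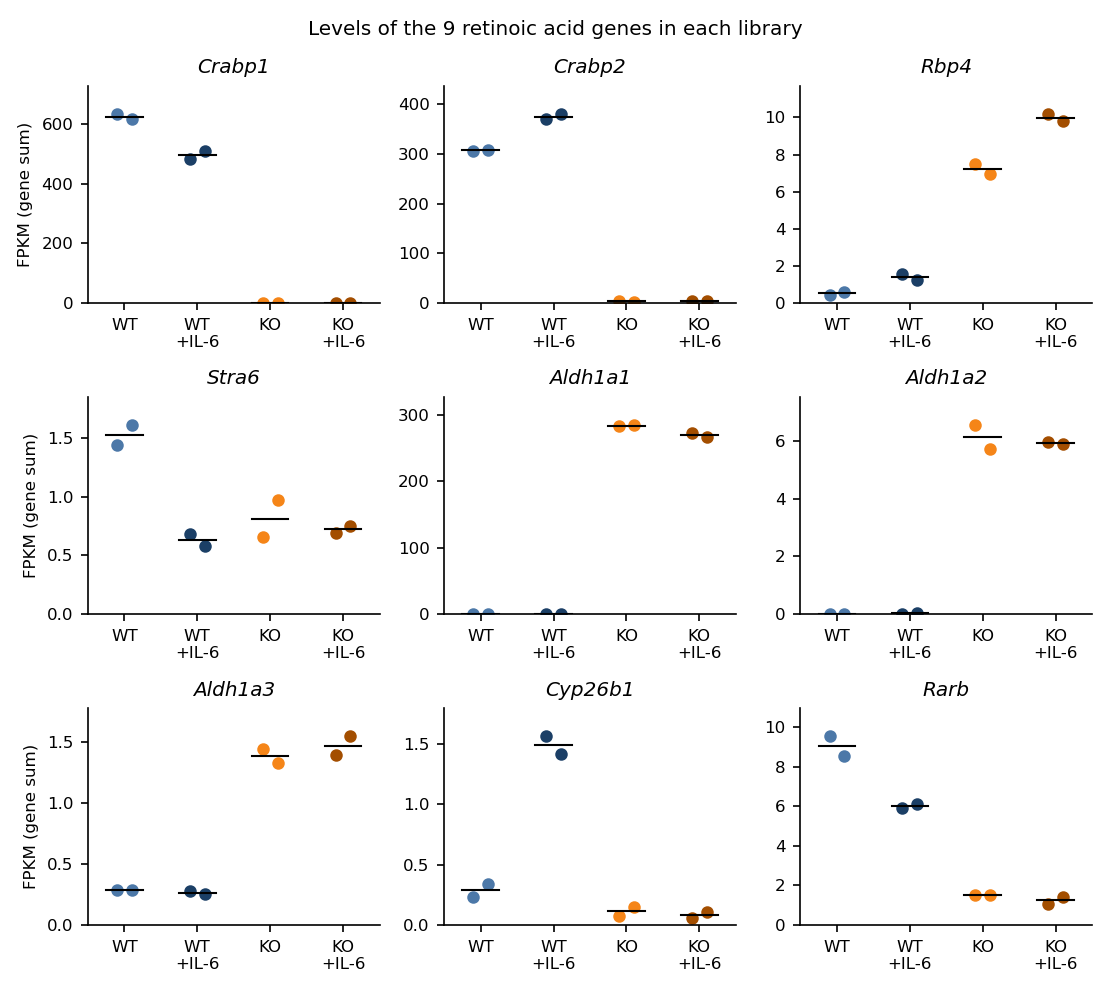
Level of each of the 9 genes in each library (FPKM summed over transcripts, linear axes from 0, a separate scale per gene); points are the 2 libraries of a group and the line is their mean. Crabp1 and Crabp2 are near 0 in KO, and Aldh1a1 and Aldh1a2 are near 0 in WT. In WT the libraries without and with IL-6 overlap for Aldh1a2 alone, and lie apart on few fragments for Aldh1a1 and narrowly for Aldh1a3. The share of all genes whose libraries lie apart was not counted, so nothing is read from this.

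The enzymes that make retinoic acid were low in WT and were led by Aldh1a1 in KO. Aldh1a1 (chr19:20492715-20643465, plus strand) was at 0.1865 and 0.1105 FPKM in untreated and 0.01355 and 0 in IL-6-treated WT libraries, and at 283.3 and 284.8 in untreated and 273.8 and 267.9 in IL-6-treated KO libraries. In fragments, WT had 11, 10, 1 and 0, and KO had 19598 to 23378 per library, so the WT difference with IL-6 (-0.19 ± 0.05) rests on few fragments. KO minus WT was 7.96 ± 0.05 without IL-6 and 8.08 ± 0.05 with it. The KO mean with IL-6 was 95.35% of that without, and the libraries of the 2 treatments did not overlap.

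Aldh1a2 (chr9:71215789-71296243, plus strand) encodes the enzyme that makes most retinoic acid in the early embryo. It was listed at 0 in both untreated WT libraries, 0 and 0.03592 FPKM in WT with IL-6 (3 fragments), 6.559 and 5.732 FPKM in untreated and 5.963 and 5.895 in IL-6-treated KO libraries. Every KO library was above every WT library, by 2.84 ± 0.09 without IL-6 and 2.77 ± 0.09 with it. Aldh1a3 (chr7:66390890-66427517, minus strand), known for the eye and nasal region, was at 0.2896 and 0.2873 FPKM in untreated and 0.2746 and 0.2566 in IL-6-treated WT libraries, and at 1.439 and 1.329 in untreated and 1.391 and 1.545 in IL-6-treated KO libraries. Its KO mean was 4.80 times the WT mean without IL-6 and 5.53 times with it. The 3 enzymes summed to 0.437 ± 0.055 FPKM (untreated WT) and 291.6 ± 0.4 FPKM (untreated KO), and Aldh1a1 was 97.4% ± 0.23 of the KO sum. In WT Aldh1a3 was the highest of the 3.

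Cyp26b1 (chr6:84571414-84593908, minus strand), which hydroxylates retinoic acid and so clears it, had its highest level in WT cells given IL-6. It was at 0.2299 and 0.3432 FPKM in untreated and 1.563 and 1.42 in IL-6-treated WT libraries, and at 0.0785 and 0.1492 in untreated and 0.06136 and 0.1052 in IL-6-treated KO libraries. These values correspond to 39.9 and 61.9, 256.1 and 238.7, 12 and 25, and 10 and 21 fragments. The WT mean with IL-6 was 5.21 times that without (0.95 ± 0.10), the largest of the 9 genes in that comparison with a pseudocount of 1 but not with 5, and the KO groups overlapped (-0.04 ± 0.10). KO minus WT was -0.21 ± 0.10 without IL-6, or 0.02 for its most abundant transcript alone, and -1.20 ± 0.10 with it. The IL-6 difference in KO minus that in WT was -0.99 ± 0.15, and ranged from -2.27 to -0.30 over the alternatives. Cyp26b1 and Crabp1 were near 0 in KO, where a change of the same fold as in WT would hardly show on this scale. Their values of this quantity thus largely repeat the WT difference and do not show that KO cells respond otherwise. For the other members the same quantity was 0.57 ± 0.16 for Stra6, 0.39 ± 0.12 for Crabp1 and 0.35 ± 0.14 for Rarb, and between -0.24 and 0.12 for the other 5.

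Rarb (chr14:16430839-16819156, minus strand), the receptor gene whose promoter holds the repeat printed above, was at 9.542 and 8.559 FPKM in untreated and 5.908 and 6.128 in IL-6-treated WT libraries, and at 1.502 and 1.527 in untreated and 1.057 and 1.423 in IL-6-treated KO libraries. By gene sum its groups were ordered from high to low as listed, with no overlap. In KO the coding transcript Rarb-201 alone was at 0.4886 and 0.3578 FPKM without IL-6 and 0.4092 and 0.3159 with it, which overlap. The derived fragments of the gene in KO overlapped too, at 87.1 and 79.3 without IL-6 and 81.6 and 76.3 with it, before scaling by depth. KO held 16.7% of the WT mean without IL-6 (-1.997 ± 0.096) and 20.6% with it (-1.65 ± 0.10). With IL-6 the WT mean was 66.5% of that without (-0.52 ± 0.10), and the KO mean was 81.9% (-0.17 ± 0.10), the latter with libraries close together at 1.423 and 1.502.

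**Figure D2:**
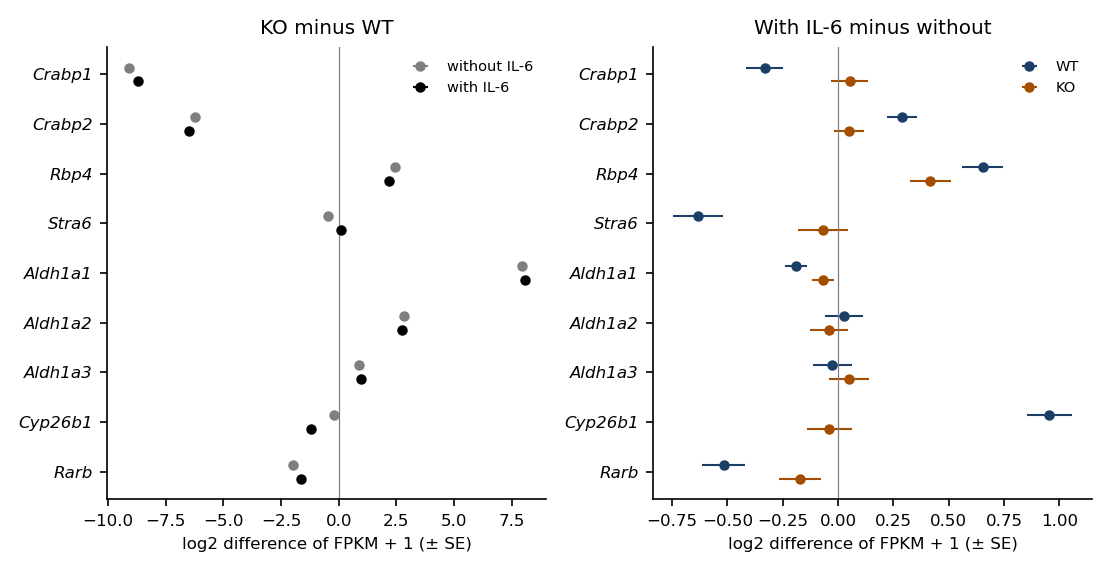
Differences of log2(FPKM + 1) for the 9 genes, with SE from the fit over all 8 libraries. Left, KO minus WT, from -9.09 for Crabp1 to 8.08 for Aldh1a1; right, with IL-6 minus without, from -0.63 for Stra6 to 0.95 for Cyp26b1 in WT.

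Counted against the threshold used for all genes (limma, adjusted p below 0.05), 4 of the 9 genes were higher and 4 lower in KO in either medium, where 36.4% and 34.5% of all genes were without IL-6 and 36.9% and 34.8% with it. With IL-6 in WT 3 were higher and 4 lower, where 8.3% and 7.41% of all genes were. Of all genes that passed there, 52.8% were higher, and 34.7% were when libraries were scaled to equal total FPKM. None of the 9 passed with IL-6 in KO (1 at an unadjusted p below 0.05), where 0.0219% of all genes did, which is 3 genes (Cebpd, Igfbp3 and Spp1, named after their values were seen). In the difference between the IL-6 differences of the genotypes 1 of the 9 passed, where 6.06% of all genes did. Of all genes that passed there, 41.9% had a positive difference, and 55.1% with that scaling. Since the 9 were chosen from these contrasts, nothing is read from these counts. The comparisons also share libraries, as untreated WT enters both the IL-6 comparison in WT and the untreated genotype comparison.

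For Aldh1a1, Rbp4 and Rarb most of the signal came from 1 start in the genotype where the gene was high. Aldh1a1-201, the transcript that begins in the window printed above, was at 276.6 FPKM in untreated KO and 264.5 in KO with IL-6, 97.4% and 97.7% of the gene. In untreated WT, where the gene was near 0, it was 52.8%. The other 5 transcripts of the gene begin about the upstream start and were at 3.337 FPKM or less each in untreated KO. Rbp4-202 was at 7.082 FPKM in untreated KO and 0.5309 in untreated WT, and was the only Rbp4 transcript above 0 in untreated WT. For Rarb, Rarb-201, Rarb-202 and Rarb-205 begin in the printed window, and together they held most of the gene's FPKM in WT. Rarb-202 is annotated as subject to nonsense-mediated decay and stood at 3.867 FPKM in untreated WT against 3.245 for the coding Rarb-201. Rarb-203 and Rarb-204, which begin at the distal start, were listed at 0 in untreated WT. Stra6-202 and Stra6-214 begin at different places, and with IL-6 in WT they stood at 0.4743 and 0.1066 FPKM against 1.068 and 0.3702 without. Cyp26b1 signal in WT with IL-6 was divided between Cyp26b1-204 (0.6798 FPKM) and Cyp26b1-205 (0.8057), and its 2 transcripts that begin near the RefSeq start were near 0. Division of fragments between transcripts of 1 gene is an estimate by the authors' software. Aldh1a7 is a close copy of Aldh1a1, so fragments could have been divided between them, and its 1.424 and 1.48 FPKM in untreated KO are uncertain.

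**Figure D3:**
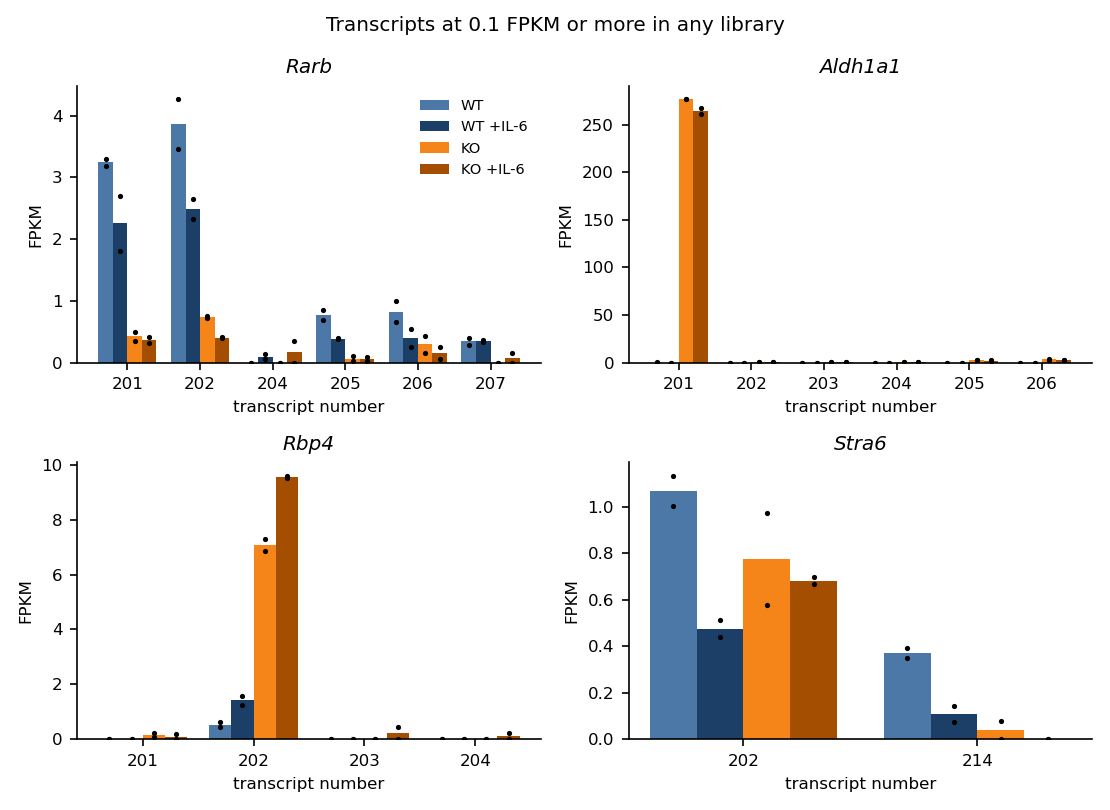
FPKM of transcripts of Rarb, Aldh1a1, Rbp4 and Stra6 that reached 0.1 FPKM in any library; bars are group means, dots the 2 libraries, and the horizontal axis gives the annotated transcript number. In KO, Aldh1a1-201 and Rbp4-202 hold nearly all signal of their genes, and Rarb signal lies mainly in Rarb-201 and Rarb-202.

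The genes whose profile over the 8 libraries was most like each of the 3 members of widest range were found by the root mean square difference of centred log2(FPKM + 1) values. For Aldh1a1 they were Gpm6a (0.101), Upk1b (0.2) and Lrrn4 (0.293), all 3 of them on the mesothelial marker list. For Crabp1 they were the chemokine gene Cxcl5 (0.307), Ccn5 (0.535) and the enkephalin precursor gene Penk (0.576). For Crabp2 they were the growth factor gene Fgf7 (0.067), the receptor gene Il1rl1 (0.191) and the water channel gene Aqp1 (0.205). All 8 libraries enter each value, and they share the contrast between genotypes.

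Beyond the 9 genes, 76 genes of retinoid handling were listed in 6 groups by role, with earlier results of these data known. Of them 50 were tested. Between untreated genotypes 25 rose, 17 fell and 8 did not pass, with a median of 0.16 against 0.01 for all genes. With IL-6 22 were higher in KO, 18 lower and 10 did not pass (median 0.10 against 0.01). Among all genes tested the shares were those given above, and the difference of this list from them was not tested. Among the 39 that reached 1 FPKM in at least 2 libraries of both genotypes, 19 rose, 12 fell and 8 did not pass without IL-6, and with it 16 were higher in KO, 13 lower and 10 did not pass. Of the genes named below, Lpl, Aldh1a7 and Hoxb2 reached 1 FPKM in at least 2 libraries of KO alone, and Rdh12, Adh7, Hoxa5 and Tbx1 of WT alone, so they entered the test through the genotype in which they were high. Their p-values for the genotype differences are given as a description and are not read as support.

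Retinol uptake and storage had 5 of 12 genes tested, of which 3 rose and 2 fell in KO with either medium. Lpl, the lipase that releases retinyl esters from lipoprotein particles, measured 0.4885 and 0.5103 FPKM in the WT and 95.61 and 97.63 in the KO libraries without IL-6 (6.03 ± 0.05, limma, adjusted p = 1.93e-10). It was above every WT library in every KO library. Lrat, which esterifies retinol, was listed at 0 in all 8 libraries.

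Of 13 oxidoreductases of retinol and retinal tested, 5 rose and 5 fell in untreated KO, and with IL-6 4 and 5 did. Dhrs3, which reduces retinal back to retinol, measured 13.06 and 13.79 FPKM in the WT and 138.2 and 132.3 in the KO libraries without IL-6 (3.24 ± 0.06, limma, adjusted p = 5.47e-09). Rdh10, the main retinol dehydrogenase of the embryo, measured 4.424 and 4.849 FPKM in the WT and 10.27 and 9.096 in the KO libraries without IL-6 (0.92 ± 0.07, adjusted p = 1.94e-05). These enzymes, which act in opposite directions on the retinol-retinal step, were both above every untreated WT library in every untreated KO library. Rdh12 (-1.72 ± 0.08, from 4.783 and 5.388 to 0.8779 and 0.8198 FPKM) and Adh7 (-1.43 ± 0.15, from 1.919 and 1.899 to 0.09319 and 0.06762 FPKM) fell, with adjusted p of 9.85e-07 and 8.67e-05 in limma. Of the other dehydrogenases and hydroxylases 2 of 7 were tested. Cyp1b1, a cytochrome that can oxidise retinoids, fell in KO (-0.29 ± 0.04 untreated) and Aldh1a7 rose with the uncertainty given above (1.14 ± 0.12 with IL-6, limma, adjusted p = 6.63e-05).

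Among the receptors and their other carrier, 6 of 7 genes were tested. In untreated KO 4 fell, 1 rose and 1 did not pass, and with IL-6 4 fell and 2 did not pass. Rarg was the most abundant of the 3 receptors and fell from 114.4 and 105.5 FPKM in untreated WT to 35.73 and 37.12 in untreated KO (-1.57 ± 0.05, limma, adjusted p = 7.55e-08). Rara measured 13.58 and 12.66 FPKM in the WT and 13.83 and 15.52 in the KO libraries without IL-6 (0.15 ± 0.07, adjusted p = 0.0768 in limma), which did not pass. It passed when libraries were scaled to equal total FPKM (0.0215) or without KO replicate 1 (0.0265). Rxra fell in KO (-0.40 ± 0.08 untreated and -0.60 ± 0.08 with IL-6, limma, adjusted p = 0.00202 and 0.00022). Rxrb rose untreated (0.23 ± 0.07, limma, adjusted p = 0.0155) but not without WT replicate 2 (0.0881) or KO replicate 2 (0.0991). Summed over Rara, Rarb and Rarg, receptor transcripts came to 132.2 ± 7.6 FPKM (untreated WT) and 52.6 ± 2.2 FPKM (untreated KO). Rarb was 6.94% and 6.75% of that sum in the untreated WT libraries and 2.94% and 2.82% in the untreated KO libraries. Fabp5, the carrier that takes retinoic acid to PPARδ, was lower in KO than in WT with IL-6 (-1.31 ± 0.07, limma, adjusted p = 1.21e-06).

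All 10 receptor coregulators were tested, and in untreated KO 6 rose, 1 fell and 3 did not pass, with a median of 0.20. With IL-6 5 rose, 1 fell and 4 did not. Of 14 tested genes known as retinoic acid targets, of 20 listed, 9 rose and 4 fell in untreated KO and 9 rose and 5 fell with IL-6. They moved in both directions within the Hox family. Hoxb2 rose from 0.5113 and 0.58 FPKM to 8.926 and 9.885 (2.75 ± 0.11), while Hoxa5 fell from 3.817 and 4.123 to 0.9333 and 1.03 (-1.33 ± 0.08), both between the untreated genotypes. Meis2 (1.45 ± 0.13), a homeobox gene of the proximal limb, and Bhlhe40 (1.32 ± 0.08) rose too. Tbx1 (-1.64 ± 0.10), a pharyngeal regulator, fell, and stood at 0 and 0.01616 FPKM in untreated KO. In limma each had an adjusted p of 3.03e-05 or less. With IL-6 the KO minus WT differences of the leading genes were, on the log2 scale, Lpl 5.74, Dhrs3 3.29, Hoxb2 2.63, Rdh12 -1.80, Rarg -1.61, Meis2 1.47, Tbx1 -1.44 and Hoxa5 -1.40.

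With IL-6 in WT, 10 of the 50 other genes rose and 2 fell (median 0.05 against -0.002 for all genes), where 8.3% of all genes rose and 7.41% fell. The difference of this list from all genes was not tested. Cyp1b1 rose from 40.78 and 41.5 to 69.83 and 72.35 FPKM (0.77 ± 0.04, limma, adjusted p = 4.8e-05) and Fabp5 from 117.1 and 119.9 to 168.8 and 193.9 (0.61 ± 0.07, limma, adjusted p = 0.00116). Rdh10 (0.40 ± 0.07), Akr1b8 (0.37 ± 0.05) and Lpl (0.34 ± 0.05) rose, as did the targets Rarres1 (0.46 ± 0.10), Bhlhe40 (0.44 ± 0.08), Nr2f2 (0.39 ± 0.08) and Tgm2 (0.30 ± 0.05) and the lipoprotein receptor gene Scarb1 (0.31 ± 0.06). Lpl was below 1 FPKM in every WT library. Its difference ranged from 0.10 to 0.73 over 17 alternatives and did not pass in 1 of them. Dhrs9, a retinol dehydrogenase, fell (-0.51 ± 0.08, limma, adjusted p = 0.0068), as did Rai14 (-0.24 ± 0.04, limma, adjusted p = 0.0113). Of the 14 targets tested 4 rose and 1, Rai14, fell. Of the 10 coregulators 0 passed in limma, and 1 had an unadjusted p below 0.05. No difference between these groups was tested. Rara (0.19 ± 0.07), Rarg (0.06 ± 0.05), Rxra (0.09 ± 0.08) and Rxrb (0.14 ± 0.07) did not pass. Without the second library of WT with IL-6, 7 of the 50 passed, 6 of them among these 12. Rarres1, Rdh10, Bhlhe40, Nr2f2, Scarb1, Tgm2 and Rai14 each failed to pass without at least 1 library. Markers of cell types also moved with IL-6 in WT. Of 11 fibroblast markers 3 rose, among them Dcn (1.36 ± 0.08), and 4 fell, among them Col1a2 (-0.60 ± 0.04). Fabp4 of the adipocyte list rose (2.002 ± 0.106), and Twist1 of the limb mesenchyme list (-0.35 ± 0.05) and Msln of the mesothelial list (-0.32 ± 0.06) fell, each with an adjusted p of 0.0176 or less in limma. Their part in the changes above was not tested.

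With IL-6 in KO none of the 50 passed (3 at an unadjusted p below 0.05, limma). In the difference between the IL-6 changes 5 of the 50 passed, where 6.06% of all genes did (41.9% of them positive, and 55.1% with libraries scaled to equal total FPKM). The list's difference from all genes was not tested. All 5 differences were negative: Cyp1b1 (-0.59 ± 0.06), Fabp5 (-0.49 ± 0.09), Tgm2 (-0.40 ± 0.07), Akr1b8 (-0.36 ± 0.07) and Scarb1 (-0.35 ± 0.08). Without any 1 library 1 to 3 of these 5 still passed, and Cyp1b1 did each time. Of the markers, 2 fibroblast genes had a positive and 2 a negative difference that passed, as did Fabp4 (negative) and 1 limb mesenchyme gene (positive), and their part was not tested.

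**Figure D4:**
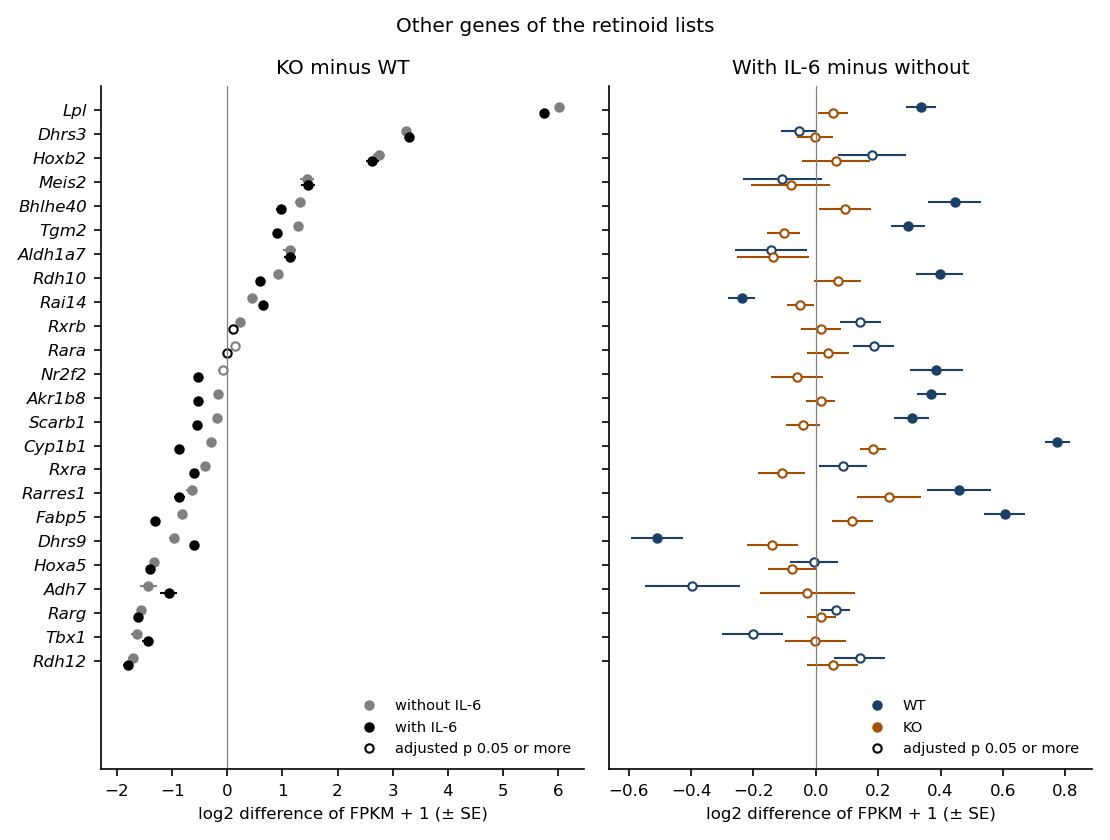
Differences of log2(FPKM + 1), with SE, for named genes of the retinoid lists that are not among the 9; filled points passed an adjusted p of 0.05 in limma and open points did not. Left, KO minus WT, from Rdh12 at -1.72 to Lpl at 6.03 untreated; right, with IL-6 minus without, where points of KO are all open.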

How the data were processed

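RNA of 8 libraries, 2 in each of 4 groups, was isolated with an RNeasy Mini Kit and made into libraries with TruSeq stranded mRNA reagents, per the labels' protocols. The authors deposited FPKM for each transcript, with HISAT2, Cufflinks 2.2.1 and GRCm38.p6 named in the submitters' processing notes. No source used here says that fragments were assigned by strand. FPKM of 142869 transcripts were summed to 55358 genes by name. The 13693 genes that reached 1 FPKM in 2 or more libraries were fitted in R 4.3.3 with limma 3.58.1. The fit used log2(FPKM + 1), 1 mean for each group, all 8 libraries (4 residual degrees of freedom) and a variance trend with level. P-values were adjusted by Benjamini-Hochberg over the genes tested, and a gene passed at an adjusted p below 0.05.

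Depth was fitted to the steps between low values, of which 93.6 to 95.1% per library lay within 0.1 of a whole fragment. Fragment counts given are derived from it and serve as a description. Coordinates are GENCODE M21 on GRCm38, and promoter windows are RefSeq's. Tables were handled with Python 3.11.15, pandas 2.3.3 and numpy 2.4.6, and figures drawn with matplotlib 3.10.9.

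The members and gene lists were chosen with earlier results of these data known. The text names all 9 members, up to 12 of the other retinoid genes that passed in each comparison by size of difference, and Rara, Rarg, Rxra and Rxrb. Some genes this rule names are not reported here. Members get no p-value. Alternatives were other pseudocounts and filters, scalings, the most abundant transcript, the replicate number as a block, no intensity trend, fits of only the groups compared, and leaving out each library.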

Additional observations from a re-analysis of the deposited data

Results flagged for a closer look

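The difference between the IL-6 changes of the genotypes was tested as KO change minus WT change (limma interaction, n = 2 libraries per group). Of the 50 other retinoid genes tested 5 passed, where 6.06% of all genes did. Cyp1b1 differed by -0.5915 (adjusted p = 0.00207), with a change of 0.77 in WT and 0.18 in KO, and passed under every alternative tried for it. Fabp5 differed by -0.4893 (adjusted p = 0.0268), Tgm2 by -0.3979 (adjusted p = 0.0261), Akr1b8 by -0.355 (adjusted p = 0.0242) and Scarb1 by -0.3478 (adjusted p = 0.0476), and each of these 4 failed to pass without at least 1 library or with no filter on low values. Groups of 2 libraries were too small for a check of single libraries that stand apart.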

How the results depend on the processing

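Of 585 recomputed differences of the 9 members, 448 moved by less than the spread between libraries and 137 by more, mostly with the pseudocount or without 1 library. Of the 45 differences behind them, 12 did not keep 1 sign over the alternatives, values of 0 included. Of 985 for other retinoid genes, 67 no longer passed, 3 newly passed and 0 turned direction. The pseudocount sets the size of low genes' differences: with 0.1 and 5 in place of 1, KO minus WT without IL-6 was 5.96 and 1.16 for Aldh1a2, and the IL-6 difference in WT was 2.06 and 0.30 for Cyp26b1. The IL-6 difference of Rbp4 in KO minus that in WT was -0.80 and 0.08. With IL-6 in WT, 2150 genes passed, 938 with only the groups compared and 1165 to 1774 without 1 library. Of the other retinoid genes 12 passed, 6 with only the groups compared and 7 without the second library of WT with IL-6. With IL-6 in KO 3 genes passed, 7 with no filter, 5 with a filter of 5 FPKM, 0 with only the groups compared, and 0 to 4 without 1 library. In the difference between the IL-6 changes 830 genes passed, 521 with no filter, and 383 to 523 without 1 library. There 5 other retinoid genes passed, 1 with no filter, 2 with no intensity trend, 3 with the replicate block, and 1 to 3 without 1 library. Fits that leave out a library have fewer samples, and a lone library is taken to vary like the other groups; otherwise the cause was not tested. Deviations of libraries with the same number correlated at -0.097 to 0.055 between groups, so the numbers are not shown to pair libraries.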
